A study of Mus musculus with 18 samples.

Results

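GABA-A receptor subunits were followed in RNA-Seq counts from the ventral granule cell layer of Swiss Webster males, adults of 8 to 12 weeks. The genes described are 7 subunits listed by symbol, Gabra2, Gabra3, Gabra4, Gabra5, Gabrb1, Gabrb2 and Gabrd, out of 34620 genes in the count tables and of 19 genes that encode subunits of the family. All 7 were counted in every library and all 7 passed the filter on low counts, which left 17421 genes for testing. The series holds 6 such libraries, 2 of each group. WT males had WT mothers and WT grandmothers. F1 males had mothers labelled 5HT1A-/+, heterozygous for the serotonin 1A receptor, and grandmothers with the same label. F2 males had WT mothers and grandmothers labelled 5HT1A-/+. The F1 and F2 males were themselves genetically WT according to the study, so no male in the comparison carried the receptor mutation. By the study's methods, F1 males came from crosses in which both parents were heterozygous, and F2 males from F1 females crossed with WT males. The groups therefore differed in ancestry, and for F1 this includes the genotype of the father. The tissue was the ventral dentate gyrus, microdissected from brain sections of animals from at least 3 litters. How many animals went into a library is not given in the sources used here, and p-values therefore measure the spread between these libraries, which may in part be technical.

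GABA-A receptors are chloride channels opened by the transmitter GABA. Each is a ring of subunits that usually combines alpha and beta subunits with a gamma or a delta subunit. The alpha subunit sets much of the response to GABA and to benzodiazepines, and receptors with the delta or the alpha5 subunit lie largely outside synapses and carry a steady, tonic inhibition. Granule cells of the dentate gyrus are known for strong tonic inhibition through receptors that contain alpha4 and delta, and the alpha5 subunit is known for its abundance in hippocampal pyramidal cells. Several of these subunits are targets of anxiolytic and sedative drugs.

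The subunit genes lie in clusters (GENCODE M1 annotation, mm9). Gabra2 (chr5:71352296-71487088) and Gabra4 (chr5:71960973-72049547) on the minus strand and Gabrb1 (chr5:72091171-72529628) on the plus strand share a cluster with Gabrg1. Gabra5 (chr7:64663060-64765379, minus strand) lies next to Gabrg3. Gabrb2 (chr11:42233259-42446092, plus strand) lies next to Gabra6. Gabra3 (chrX:69678020-69902187, minus strand) neighbours Gabrq. Gabrd (chr4:154759089-154772221, minus strand) stands alone, between Prkcz and 2010015L04Rik. Counts cover the exons of each gene, coding and untranslated parts together. The 3' end of Gabra5 overlaps Gm9962 on the other strand, and the strand setting of the counting is not given in the sources used here.

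The promoters of 3 alpha subunits are shown because Gabra3 and Gabra5 were the members that passed the test described below and Gabra4 is the alpha subunit of the tonic receptors of granule cells. RefSeq gives 2 starts for Gabra3, and the upstream one is shown. Each is the 250 bases before the annotated start (RefSeq, GRCm38.p6, minus strand, written 5' to 3'), at chrX:72656920-72657169 for Gabra3, chr7:57510060-57510309 for Gabra5 and chr5:71658309-71658558 for Gabra4. Capitals mark matches, on either strand, to a TATA box (TATAAA), a GC box (GGGCGG) or a CCAAT box (CCAAT).
Gabra3: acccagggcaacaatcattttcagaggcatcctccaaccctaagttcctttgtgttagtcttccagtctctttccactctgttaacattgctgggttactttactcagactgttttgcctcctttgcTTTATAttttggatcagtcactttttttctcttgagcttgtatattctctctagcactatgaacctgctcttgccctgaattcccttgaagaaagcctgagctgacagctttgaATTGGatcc
Gabra5: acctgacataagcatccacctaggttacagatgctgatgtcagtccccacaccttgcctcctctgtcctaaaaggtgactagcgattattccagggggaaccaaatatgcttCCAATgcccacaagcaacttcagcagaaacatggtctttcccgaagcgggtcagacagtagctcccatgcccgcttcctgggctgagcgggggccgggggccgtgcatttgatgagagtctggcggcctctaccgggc
Gabra4: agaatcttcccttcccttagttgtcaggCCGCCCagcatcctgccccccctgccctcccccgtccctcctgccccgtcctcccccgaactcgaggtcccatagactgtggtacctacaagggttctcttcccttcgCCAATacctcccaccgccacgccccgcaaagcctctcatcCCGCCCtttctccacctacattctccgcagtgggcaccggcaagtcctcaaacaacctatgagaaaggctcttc

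The 3 windows differ in composition. The Gabra3 window held 42.4% G and C and 0 CpG dinucleotides, with 1 match to the TATA box and 1 to the CCAAT box. The window of its other start, at chrX:72656808-72657057, overlaps the one shown and held 39.2% G and C, 0 CpG, 1 TATA box match and 2 CCAAT matches. The Gabra5 window held 56.4% G and C and 9 CpG, with 1 CCAAT match. The Gabra4 window held 61.2% G and C and 12 CpG, with 2 GC box matches and 1 CCAAT match. Over all 32851 promoter windows of this length, the medians were 52.4% G and C and 6 CpG, 12.4% of windows held a TATA box match, 32.7% a GC box match and 33.8% a CCAAT match. The Gabra3 window was thus low in G and C, and the other 2 were above the median. Of the 7 members 6 had a promoter entry, and Gabrd was not among them. A match is a description of letters and not of a bound factor.

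Between 26358165 and 33727936 reads per library fell on genes. A further share of the uniquely aligned reads was assigned to no gene because they lay wholly or partly outside annotated exons. This share was 17.7% and 20.7% in WT, 13.8% and 12.2% in F1, and 13.9% and 17.4% in F2, with multiply aligned reads left out. Libraries of a group varied by 10.6% (coefficient of variation from the common dispersion). Defining granule cell markers were well detected: Prox1 lay between 228 and 345 CPM and Calb1 between 265 and 392 CPM over the 6 libraries. CPM are counts scaled to library size after TMM normalization, which sets libraries against each other by the bulk of their genes. Expression was compared by the exact test in edgeR, with Benjamini-Hochberg adjusted p over all 17421 genes and a threshold of 0.01. By this test 12.3% of all genes differed between F1 and WT, 12.0% between F2 and WT and 0.74% between F2 and F1. Both comparisons with WT use the same 2 WT libraries. In bulk tissue, fewer cells of a type and less RNA per cell cannot be told apart.

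Of the 7 members, Gabra3 and Gabra5 rose in F1, Gabra3 rose in F2, and no member fell. Gabra3, a subunit at low level in this tissue, was 1.54-fold higher in F1 and 1.92-fold higher in F2. Gabra5 was 1.43-fold higher in F1, and in F2 its difference from WT did not pass the test. The count was 2 of 7 in F1 and 1 of 7 in F2, beside 3.77% and 3.86% of all genes that were called higher. With 7 genes the F2 count is no more than a single gene. In either direction 12.3% and 12.0% of all genes were called, and 7 genes are too few to read the absence of a fall. The median log2 fold change of the members was 0.23 in F1 and 0.22 in F2, where the medians over all tested genes were 0.01 and 0.00. The members were chosen with earlier results of these data known, so these comparisons with all genes only describe the list. With edgeR's quasi-likelihood test, which allows for the uncertainty of each gene's spread, 1 member was called in F1 (Gabra5) and 1 in F2 (Gabra3), and 5.91% and 5.72% of all genes were called. Between F2 and F1 no member was called by the exact or the quasi-likelihood test, and 1 member, Gabra5, had an unadjusted p under 0.05 in each of them.

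**Figure D1:**
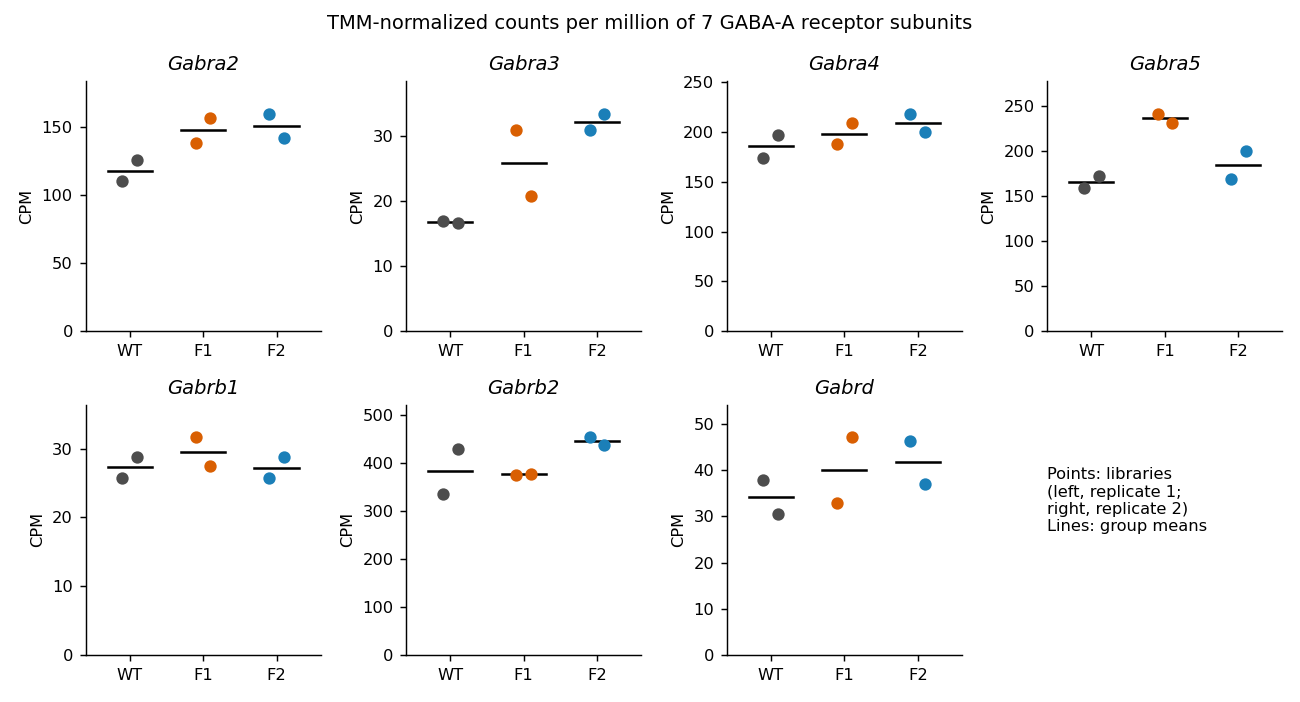
Each panel plots the TMM-normalized CPM (y axis from 0) of 1 subunit in the 2 WT, 2 F1 and 2 F2 libraries, as points, with lines for the group means. Gabra3 lies at 17.0 and 16.6 CPM in WT and at 30.9 and 33.4 CPM in F2, and Gabra5 is highest in the F1 libraries, at 241 and 231 CPM.

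Gabra3 encodes the alpha3 subunit, which is known from monoamine neurons of the brainstem, the thalamic reticular nucleus and parts of the cortex. It had 17.0 and 16.6 CPM in the WT libraries, 30.9 and 20.8 CPM in F1, and 30.9 and 33.4 CPM in F2. All F1 and F2 libraries lay above both WT libraries, and the second F1 library lay nearer to WT than to F2. In F2 the log2 fold change was 0.94 ± 0.18 (SE), with a 95% interval of 0.58 to 1.29 and an adjusted p of 9.24e-06 by the exact test. The quasi-likelihood test gave an adjusted p of 0.00422 for it, and every alternative analysis tried kept the call, with a highest adjusted p of 0.00968. In F1 the log2 fold change was 0.62 ± 0.18 (SE), with a 95% interval of 0.26 to 0.98 and an adjusted p of 0.00626 by the exact test.

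The F1 call of Gabra3 depended on the test and on single libraries. The quasi-likelihood test in edgeR gave an adjusted p of 0.0273. Without the first F1 library the log2 fold change was 0.318 with an adjusted p of 0.181 by the exact test in edgeR, and without the second F1 library it was 0.886 with an adjusted p of 4.09e-06. The call was also lost without WT replicate 1 (adjusted p of 0.0587), WT replicate 2 (0.0676), F2 replicate 1 (0.0139) or F2 replicate 2 (0.0132) in edgeR's exact test, while the log2 fold change stayed at 0.612 to 0.64. The F2 libraries enter this comparison through the shared dispersion. The difference between F2 and F1 was 0.32 on the log2 scale, with a 95% interval of -0.03 to 0.67 and an adjusted p of 0.657. A larger difference from WT in F2 than in F1 was therefore not shown.

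Gabra5 encodes the alpha5 subunit of mostly extrasynaptic receptors. It had 158 and 172 CPM in WT, 241 and 231 CPM in F1, and 168 and 199 CPM in F2. Both F1 libraries lay above all others, and the F2 libraries overlapped WT. The F1 log2 fold change was 0.52 ± 0.12 (SE), with a 95% interval of 0.28 to 0.76, and its adjusted p was 0.000485 by the exact test and 0.00852 by the quasi-likelihood test. Without WT replicate 1 it was 0.461 with an adjusted p of 0.0369 in edgeR. In F2 the log2 fold change was 0.16, with a 95% interval of -0.09 to 0.40 and an adjusted p of 0.408. Both F2 libraries lay below both F1 libraries, by -0.36 on the log2 scale with a 95% interval of -0.60 to -0.12. The exact p of this difference was 0.00347 before adjustment and 0.147 after it, so the F1 and F2 levels of Gabra5 were not called different.

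Gabra2 encodes the alpha2 subunit, found at many synapses of the hippocampus and tied to the anxiolytic action of benzodiazepines. It had 111 and 126 CPM in WT, 138 and 157 CPM in F1, and 160 and 142 CPM in F2. All F1 and F2 libraries were above both WT libraries, yet the adjusted p of edgeR's exact test was 0.0531 in F1 and 0.0302 in F2, above the threshold of 0.01. The log2 fold changes were 0.32 ± 0.13 (SE) and 0.36 ± 0.13 (SE). Their 95% intervals, 0.07 to 0.57 and 0.11 to 0.61, lay above 0.

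Gabra4 and Gabrd encode the alpha4 and delta subunits that are combined in the tonic receptors of granule cells. Gabra4 had 174 and 197 CPM in WT, 187 and 209 CPM in F1, and 218 and 200 CPM in F2. The F1 libraries overlapped WT, and both F2 libraries were above WT by a small margin. Its log2 fold change was 0.10 in F1, with a 95% interval of -0.14 to 0.34, and 0.17 in F2, with an interval of -0.07 to 0.41. Gabrd had 37.8 and 30.5 CPM in WT, 32.8 and 47.1 CPM in F1, and 46.4 and 37.0 CPM in F2, so that all groups overlapped. Its log2 fold change was 0.23 in F1, with a 95% interval of -0.13 to 0.59, and 0.29 in F2, with an interval of -0.07 to 0.65. Adjusted p-values by edgeR's exact test were 0.639 and 0.339 for Gabra4 and 0.411 and 0.277 for Gabrd.

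Gabrb1 and Gabrb2 encode beta subunits, which form the GABA binding site together with the alpha subunits. Gabrb1 had 25.8 and 28.8 CPM in WT, 31.7 and 27.5 CPM in F1, and 25.7 and 28.8 CPM in F2. The groups overlapped, and the F2 mean was nearly that of WT, with a 95% interval of the log2 fold change from -0.29 to 0.29. Gabrb2 had 336 and 428 CPM in WT, 374 and 378 CPM in F1, and 453 and 438 CPM in F2. The WT libraries spanned both F1 libraries and lay below both F2 libraries. The F2 log2 fold change of Gabrb2 was 0.22, with a 95% interval of -0.03 to 0.48 and an adjusted p of 0.228 by the exact test in edgeR. In F1 it was -0.02, with an interval of -0.28 to 0.23.

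Both libraries of F1 lay above both of WT for 3 of the 7 members, Gabra2, Gabra3 and Gabra5, beside 29.8% of all genes tested. In F2 this held for 4 of the 7, Gabra2, Gabra3, Gabra4 and Gabrb2, beside 31.0% of all genes. Both F2 libraries lay above both F1 libraries for Gabra3 and Gabrb2, beside 19.4% of all genes, and for Gabra3 the margin was only 30.92 against 30.86 CPM. Gabra5 was lower in both F2 libraries than in both F1 libraries. For no member did both libraries of F1 or of F2 lie below WT. The share of all genes that did so is not given here, and 7 genes are too few to read this absence.

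**Figure D2:**
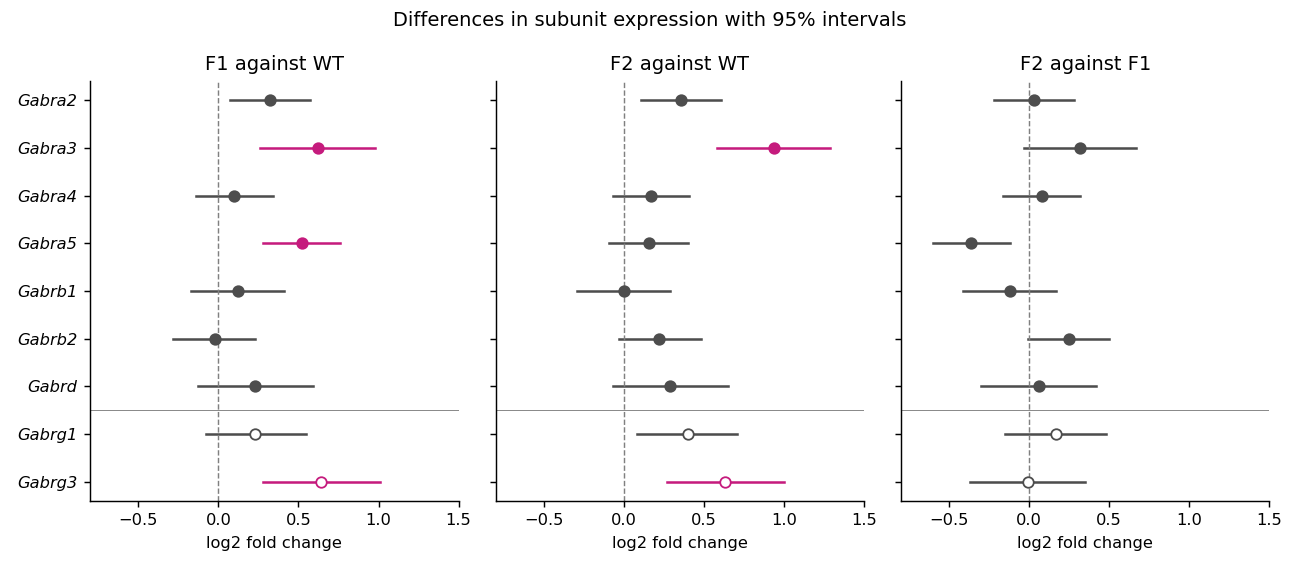
Points give the log2 fold change of each subunit gene (x axis) and bars its 95% interval, in F1 against WT, F2 against WT and F2 against F1. Filled points are the 7 members and open points Gabrg1 and Gabrg3, and magenta marks an adjusted p under 0.01 by the exact test: Gabra3, Gabra5 and Gabrg3 in F1, and Gabra3 and Gabrg3 in F2.

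The other 12 subunit genes of the family give the setting of the members. Of these, 7 passed the filter on low counts, and 1 of them, Gabrg3, rose in F1 and in F2. This single gene stands beside 3.77% and 3.86% of all genes called higher. Gabrg3 encodes the little-studied gamma3 subunit and lies next to Gabra5. It had 9.88 and 11.3 CPM in WT, 18.6 and 14.5 CPM in F1, and 15.1 and 17.7 CPM in F2. All F1 and F2 libraries lay above WT. The differences were 0.64 ± 0.19 (SE) and 0.63 ± 0.19 (SE) on the log2 scale, and adjusted p was 0.00561 and 0.00705 by the exact test and 0.0222 and 0.0249 by the quasi-likelihood test in edgeR, which ended both calls. Without WT replicate 1, F2 replicate 1 or F2 replicate 2, 0 of the other subunits were called by the exact test. By either test 2 of the 7 had an unadjusted p under 0.05 in F1, and 4 in F2. The share of all genes under that unadjusted p is not given here, so these counts do not set the subunits apart.

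The remaining subunits named here did not pass the threshold. Gabrg1, a gamma subunit, had 13.2 and 15.7 CPM in WT, 16.7 and 17.1 CPM in F1, and 19.2 and 18.8 CPM in F2. All F1 and F2 libraries lay above WT, by 0.23 and 0.40 on the log2 scale, where adjusted p was 0.329 and 0.0618 by edgeR's exact test. Gabrq and Gabrr2 were tested at 4 to 17 counts per library and were not called. Gabra6, Gabre, Gabrp, Gabrr1 and Gabrr3 had 0 to 8 counts per library and were not tested.

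Along the chromosomes, called genes were found in 2 of the clusters. In the chromosome 7 cluster, Gabrg3 and Gabra5 rose in F1, and Gabrg3 in F2. On the X chromosome Gabra3 rose in both groups, its neighbour Gabrq was too low to tell, and Magea10 had at most 0.0294 CPM. These are calls of the exact test. The quasi-likelihood test kept Gabra5 in F1 and Gabra3 in F2, but neither Gabra3 in F1 nor Gabrg3 in either group. In the chromosome 5 cluster, none of Gabrg1, Gabra2, Gabra4 and Gabrb1 was called, nor were the genes beside them, Cox7b2 and Commd8. On chromosome 11 Gabrb2 was not called. Beside Gabrd, 2010015L04Rik fell by 0.87 on the log2 scale in F1 (adjusted p of 0.00479 by the exact test and 0.0223 by the quasi-likelihood test of edgeR), while Prkcz, an atypical protein kinase C, had a log2 fold change of 0.35 and an adjusted p of 0.0172 by the exact test.

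Levels of different genes were compared as RPKM, CPM divided by the exon length in kilobases. In this order over the 6 libraries, Gabra5 averaged 73.4 RPKM, Gabra2 58.1, Gabra4 47.9, Gabrb2 40.4, Gabrd 13.4, Gabrb1 9.08 and Gabra3 6.35 RPKM. The ranges over libraries of Gabrb2 and Gabrd did not overlap, nor did those of Gabrd and Gabrb1. The other neighbours in the order overlapped in range, although within a library the order held in 6 of 6 libraries for every neighbouring pair but Gabra5 and Gabra2, where it held in 5 of 6. The member with the largest fold change, Gabra3, was thus the one with the lowest level.

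Among the 4 alpha subunits described, Gabra5 had its highest share in F1. Its share of their summed RPKM was 39.1% and 38.2% in WT, 44.98% and 41.7% in F1, and 33.2% and 39.2% in F2. Both F1 libraries were above all others, and F2 spanned WT. The Gabra4 share was 27.7% and 28.2% in WT, 22.5% and 24.3% in F1, and 27.7% and 25.3% in F2, and it was lowest in the F1 libraries. The Gabra3 share was 2.845% and 2.497% in WT, 3.89% and 2.54% in F1, and 4.12% and 4.45% in F2. Gabra3 therefore remained a minor part of these transcripts in all 6 libraries. Gabra2 held 28.6% to 35.0%. Shares are descriptions and were not tested.

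Of the summed RPKM of the 2 beta subunits described, Gabrb2 held 80.2% and 82.2% in WT, 78.6% and 81.0% in F1, and 84.6% and 82.6% in F2. The F2 libraries were the highest. The ratio of Gabrd to Gabra4, its partner in tonic receptors, was 0.312 and 0.222 in WT, 0.252 and 0.324 in F1, and 0.305 and 0.266 in F2. These ratios overlapped in all 3 groups. The ratio of Gabra5 to Gabra4 was 1.41 and 1.36 in WT, 2.00 and 1.72 in F1, and 1.20 and 1.55 in F2, highest in both F1 libraries.

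**Figure D3:**
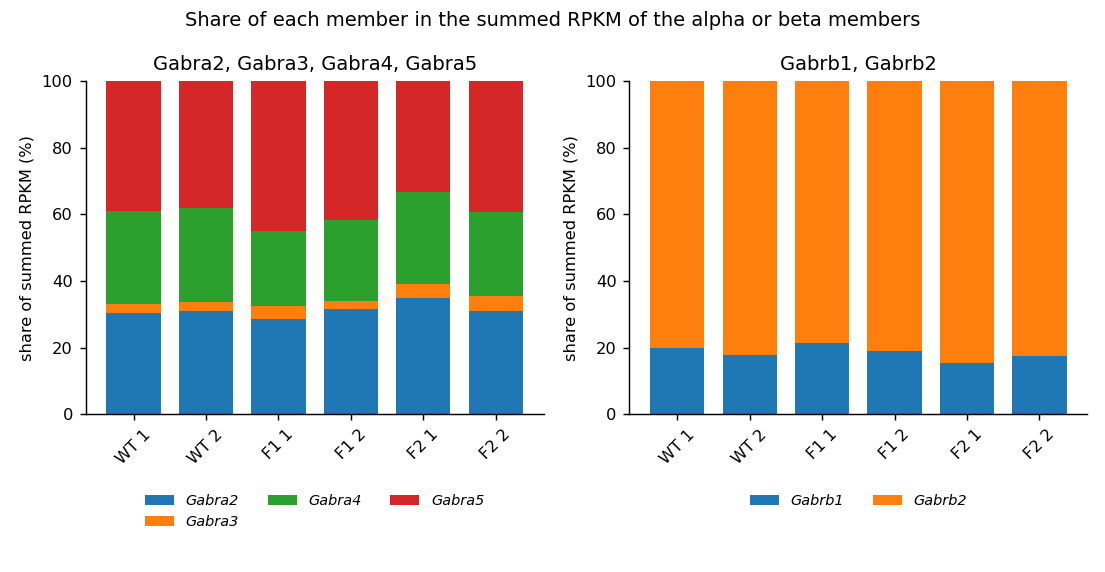
Stacked bars give, for each of the 6 libraries, the share (%) of each subunit in the summed RPKM of Gabra2, Gabra3, Gabra4 and Gabra5 (left) and of Gabrb1 and Gabrb2 (right). Gabra5 takes 44.98% and 41.7% in the F1 libraries, more than in any WT or F2 library, and Gabra3 at most 4.45%.

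Summed over the 4 alpha subunits, RPKM was lowest in WT, with 152 and 169 RPKM, against 202 and 209 RPKM in F1 and 191 and 192 RPKM in F2. The sum of Gabrb1 and Gabrb2 was 42.2 and 52.5 RPKM in WT, 48.0 and 47.0 RPKM in F1, and 54.0 and 53.5 RPKM in F2. WT replicate 1 was the lowest library in both sums.

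The list of 12 mossy cell and CA field markers as a whole did not follow Gabra5, but it held Bok and Cpne4, CA field genes that, like Gabra5, were highest in both F1 libraries. They were picked for this after their values were seen. Bok had 55.2 and 44.5 CPM in WT, 72.5 and 76.5 CPM in F1, and 37.2 and 51.2 CPM in F2. Cpne4 had 90.1 and 92.7 CPM in WT, 116 and 153 CPM in F1, and 94.3 and 97.5 CPM in F2. Both rose in F1, by 0.58 and 0.56 on the log2 scale, and their adjusted p was 0.00293 and 0.000832 by the exact test in edgeR (0.0228 and 0.0119 by its quasi-likelihood test). The other 10 markers of the list were not called in F1. Of the 12, 7 had a log2 fold change above 0 in F1, 4 had both F1 libraries above WT and 2 had both below it, and the summed level of all 12 ranged over 916 to 931 CPM (WT), 771 to 1023 CPM (F1) and 724 to 760 CPM (F2). The part of CA field tissue in the Gabra5 difference was not tested.

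Beside Gabra3, whose WT libraries were the lowest of the 6, the sums of 4 lists of glial and vascular markers were also lowest in WT. The summed level of 10 astrocyte markers ranged over 2501 to 2729 CPM (WT), 3038 to 3678 CPM (F1) and 3459 to 4136 CPM (F2). The corresponding ranges were 111 to 123, 169.5 to 175 and 155 to 186 CPM for 6 oligodendrocyte precursor markers, 181 to 182, 216 to 254 and 252 to 285 CPM for 10 microglia markers, and 132 to 142, 149 to 182 and 180 to 189 CPM for 10 endothelial markers. In the sums of these 4 lists no F1 or F2 library overlapped WT, while single markers varied. Within F1, Gabra3 was higher in replicate 1, and all 4 sums were higher in replicate 2. Within F2, Gabra3 and the precursor sum were higher in replicate 2, and the astrocyte, microglia and endothelial sums in replicate 1. Both F1 libraries lay above WT for 6 astrocyte, 6 precursor, 9 microglia and 6 endothelial markers, beside 29.8% of all genes. In F2 this held for 9, 4, 9 and 9 of them, beside 31.0% of all genes. For the 10 oligodendrocyte markers F1 lay above WT and F2 overlapped it, with sums of 1147 to 2075 CPM (WT), 2344 to 3125 CPM (F1) and 1617 to 3035 CPM (F2). The 11 interneuron markers counted summed to 745 to 822 CPM, 746 to 992 CPM and 860 to 935 CPM, with F1 overlapping WT and F2 above it. Immature neuron markers, 8 in number, summed to 624 to 663 CPM (WT), 673 to 712 CPM (F1) and 589 to 688.5 CPM (F2). Their F1 sums lay above WT, and their F2 sums overlapped both WT and F1. Of these 8, both F1 libraries lay above WT for 3 and below it for 1. The 10 granule cell markers summed to 1320 to 1331 CPM (WT), 1099 to 1366 CPM (F1) and 1496 to 1709 CPM (F2). Their log2 fold change was above 0 for 4 of the 10 in F1 and for 8 of the 10 in F2. Both F1 libraries lay above WT for 0 of them and below it for 3. In F2 the counts were 6 above and 1 below, where 31.0% of all genes lay above. Of these 10, Trpc6 was the one called, and it fell in both groups: it had 102 and 72.1 CPM in WT, 44.1 and 42.9 CPM in F1, and 54.4 and 51.6 CPM in F2, and decreased by 1.00 and by 0.71 on the log2 scale (adjusted p of 4.92e-09 and 7.23e-05 by the exact test, 0.00117 and 0.00738 by the quasi-likelihood test of edgeR). No marker was at 0 in any library, and the part of other cell types in the subunit differences was not tested.

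**Figure D4:**
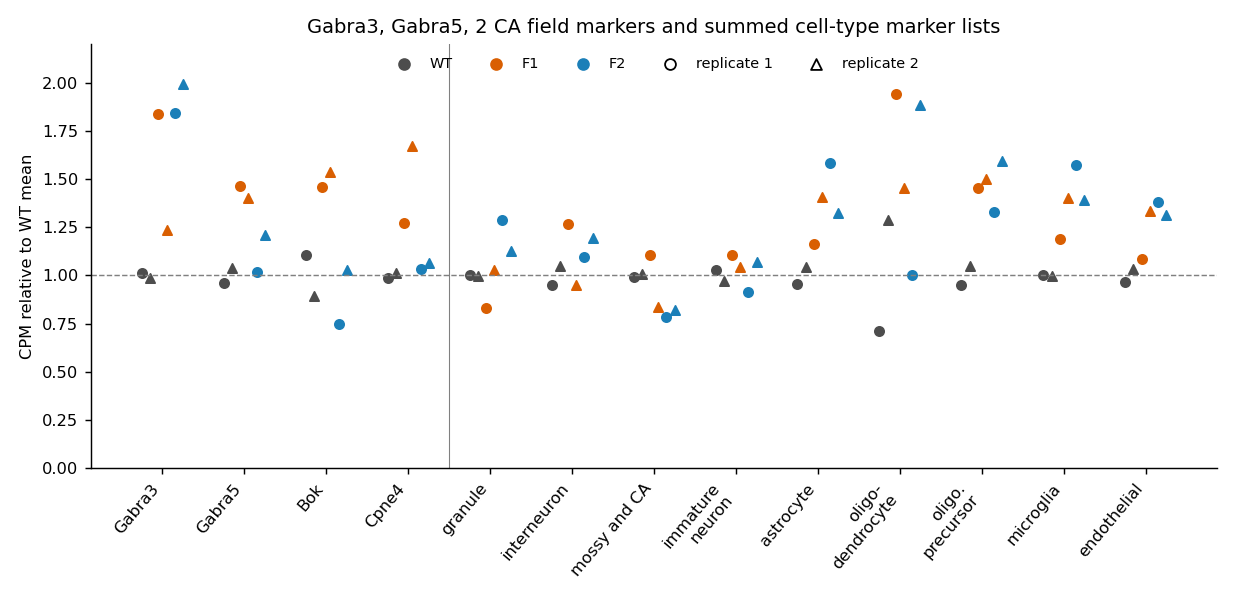
Each library's CPM relative to the mean of the 2 WT libraries (y axis from 0, dashed line at 1) is plotted for Gabra3, Gabra5, Bok and Cpne4 and for the summed markers of 9 cell-type lists, with circles for replicate 1 and triangles for replicate 2. Gabra5, Bok and Cpne4 are highest in the F1 libraries, and the astrocyte, oligodendrocyte precursor, microglia and endothelial sums are above WT in all F1 and F2 libraries. Bok and Cpne4 were picked after their values were seen, and the mossy cell and CA field sum does not follow Gabra5.

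Genes that make, carry and remove GABA were compared in the same fit. Of 9 such genes, 4 rose in F1 and 5 in F2, beside 3.77% and 3.86% of all genes called higher. None fell, where 12.3% and 12.0% of all genes were called in either direction, and 9 genes are too few to read this absence. The list was chosen with earlier results of these data known. Slc6a11, a GABA transporter known mainly from astrocytes, had 67.2 and 71.8 CPM in WT, 97.0 and 114.5 CPM in F1, and 115 and 126 CPM in F2. It rose by 0.61 and 0.79 on the log2 scale (adjusted p of 5.2e-05 and 3.93e-08, edgeR's exact test). Slc32a1, the vesicular GABA transporter of inhibitory neurons, had 28.8 and 25.6 CPM in WT, 43.7 and 41.9 CPM in F1, and 39.3 and 43.5 CPM in F2. Abat, which breaks GABA down, rose by 0.50 and 0.69 on the log2 scale. Gad2, a GABA-synthesizing enzyme, rose in F2 by 0.56 (adjusted p of 0.000268 by edgeR's exact test), and Gad1, the most abundant gene of the list, had log2 fold changes of 0.10 and 0.25 and was not called. By the quasi-likelihood test 2 of the 9 were called in F1 and 5 in F2. Gad2 and Slc32a1 are also on the list of interneuron markers, and the astrocyte sums given above were higher in F1 and F2.

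Of 22 genes for clustering and trafficking of the receptors, 4 rose and 2 fell in F1, and 3 rose and none fell in F2, beside 12.3% and 12.0% of all genes called in either direction. The F2 count is near that background of either direction. Called higher alone were 3.77% of all genes in F1 and 3.86% in F2. The list was chosen with earlier results of these data known, so these comparisons only describe it. Dag1, dystroglycan, a membrane protein at inhibitory synapses that is also found in glia and vessels, had 24.1 and 20.9 CPM in WT, 31.1 and 59.0 CPM in F1, and 54.4 and 42.3 CPM in F2. It rose by 1.00 and 1.10 on the log2 scale, where adjusted p was 0.000413 and 8.49e-05 by the exact test and 0.0165 and 0.011 by the quasi-likelihood test of edgeR. Rdx, radixin, which anchors alpha5 receptors outside synapses, rose by 0.47 and 0.39. Trak2 and Arfgef2, which act in transport of receptors to the membrane, rose in F1 by 0.51 and 0.40, and Plcl1, a receptor-associated phospholipase-like protein, rose in F2 by 0.66. Shisa7, an auxiliary subunit of the receptor, and Hap1, an adaptor for its transport, each fell by 0.50 in F1. The scaffold gene Gphn was not called, with log2 fold changes of 0.17 and 0.04, and Nsf, the most abundant of the list, had 0.32 and 0.28. The quasi-likelihood test called 2 of the 22 in F1, both higher, and 0 in F2, beside 5.91% and 5.72% of all genes. In F2 3 were called by the exact test, and 14 had an unadjusted quasi-likelihood p under 0.05. The share of all genes under that unadjusted p is not given here, so the count of 14 does not set the list apart.

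In the remaining pathway lists the called genes were single ones, and their counts do not set these lists apart from the 12.3% (F1) and 12.0% (F2) of all genes called. None of 5 GABA-B receptor genes was called in F1 or F2 by the exact or the quasi-likelihood test of edgeR. Gabbr1, the most abundant, had log2 fold changes of 0.26 and 0.15. By each test 2 of the 5 had an unadjusted p under 0.05 in F1 and in F2, and the share of all genes under it is not given here. Among 6 genes of the chloride gradient, which decides whether GABA inhibits, the chloride channel gene Clcn2 fell in both groups. It had 133 and 104 CPM in WT, 76.6 and 61.6 CPM in F1, and 61.5 and 65.5 CPM in F2, and decreased by 0.78 and by 0.90 on the log2 scale, with adjusted p-values of 3.93e-06 and 6.49e-08 by the exact test and 0.00364 and 0.0019 by the quasi-likelihood test in edgeR. Slc12a5, the neuronal chloride extruder, had log2 fold changes of -0.03 and 0.15 and was not called. Of 6 tested genes for neurosteroids and the endogenous benzodiazepine-site ligand, Hsd3b2 fell by 0.82 in F2 (adjusted p of 0.00396 by the exact test and 0.0198 by the quasi-likelihood test in edgeR), and Dbi, the most abundant, had log2 fold changes of 0.02 and -0.01.

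**Figure D5:**
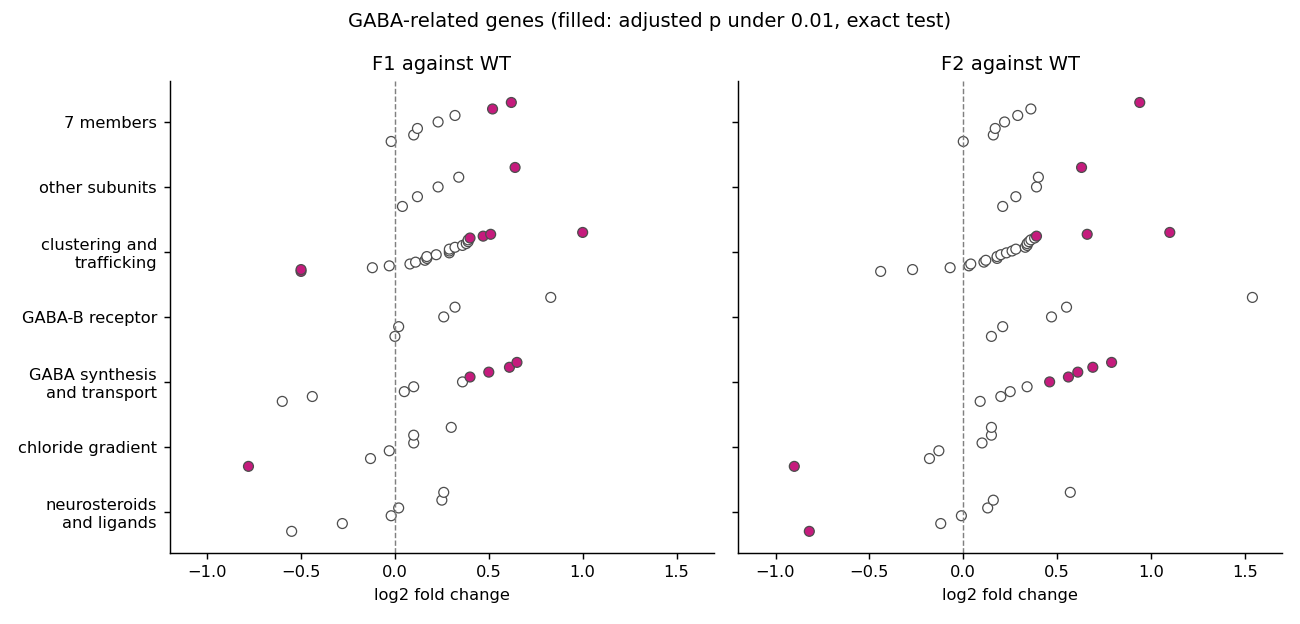
Each point is 1 gene of a list, placed by its log2 fold change (x axis) in F1 against WT and in F2 against WT, and filled points passed an adjusted p under 0.01 in the exact test. In the synthesis and transport list 4 of 9 genes in F1 and 5 of 9 in F2 are filled, all to the right of 0, and the filled gene of the chloride list is Clcn2, at -0.78 and -0.90. Gabrq and Gabrr2, under 1 CPM, are not drawn.

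The members did not share a single pattern over the libraries. Their mean profile, the average of log2 CPM centred on each gene's own mean, was -0.24 and -0.14 in WT, 0.07 and 0.08 in F1, and 0.13 and 0.11 in F2. Gabra2 and Gabra4 were nearest to this mean, with root mean square differences of 0.077 and 0.093, and Gabra3 was farthest, at 0.31. Among 11603 other genes with a mean of at least 5 CPM, the nearest to the mean profile over the 6 libraries were Slc22a23 at 0.015, Acot6 and Serpine2 at 0.016, Arfip1 at 0.017 and Ctdp1 at 0.018. None of these 5 was called in F1 or F2.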

How the data were processed

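RNA-Seq counts from microdissected ventral dentate gyrus (6 libraries, 2 each of WT, F1 and F2) were analysed, and 12 bisulfite sequencing samples were not. The authors aligned single-end reads of 50 bases with TopHat to known junctions of mm9 and deposited raw counts per gene symbol from HTSeq (intersection-strict mode), which leaves out multiply aligned reads, so that copies with near-identical sequence are undercounted. The submitters' processing notes name TopHat2 2.0.2. Depth was 26358165 to 33727936 reads on genes, so that precision is limited by the number of libraries rather than by counting error.

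Groups follow the labels. After a filter on low counts (filterByExpr) and TMM normalization, groups were compared by the exact test of edgeR 4.0.16 (R 4.3.3), with common and tagwise dispersion over the 3 groups and Benjamini-Hochberg adjustment. The threshold of 0.01 is that used for the study's results, while its methods give 0.05, at which Gabra2 would also be called in F2. Standard errors follow from mean counts and tagwise dispersion by the delta method. Replicates were not duplicates: their chi-square per degree of freedom was 18.5 to 23. RPKM are computed here from CPM and exon length (GENCODE M1, which matched 33294 of 34620 symbols).

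Genes named are the members, other subunits, neighbours of members, list genes past the threshold, the most abundant gene of each list and the 5 genes nearest to the members' mean profile, beside Bok, Cpne4, Prox1, Calb1, Trpc6 and Gphn. Results of some genes under these rules are not reported here, although counts include them, and shares were computed among members. The members and lists were chosen with earlier results of these data known. Counts were simulated for F1 against WT with 200 of 17421 genes changed 2-fold up or down. In these counts the exact test recovered 93.5% of the changed genes, with 1.06% of calls false. The simulation gave every gene the common dispersion and changed only well-counted genes, whereas real genes differ in spread. These rates therefore hold for the simulated setting and not for the real data. Recovery of smaller differences, such as the 1.43-fold one of Gabra5 in F1, was not tested. The share of false calls among the 2144 genes called in F1 was not tested either. Alternatives were edgeR's quasi-likelihood test with and without a replicate block, its likelihood-ratio test with the block, DESeq2 1.42.0, other dispersions, size factors, filters and a threshold of 0.05, offsets for GC content and length, and each library left out.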

Additional observations from a re-analysis of the deposited data

Results flagged for a closer look

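Bok, a CA field marker, was set beside Gabra5 above after its values were seen. The list it came from did not follow Gabra5 as a whole. F1 and F2 were compared directly here, and the WT libraries enter through the shared dispersion. Bok differed between F1 and F2. It was lower in F2 than in F1 by -0.75 on the log2 scale, with an adjusted p of 0.000576 by the exact test in edgeR, and both F2 libraries lay below both F1 libraries. By the quasi-likelihood test of edgeR the adjusted p was 0.0758, which ended the call, and that test called 2 genes in all between F2 and F1, against 129 by the exact test. No subunit gene differed between F1 and F2 at this threshold.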

How the results depend on the processing

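With 2 libraries per group, the spread of single genes is poorly known, and the smaller differences of the subunits rest on it. The call of Gabra3 in F2 and its direction held in all 19 alternatives. The replicate numbers did not pair the libraries: deviations of same-numbered libraries had correlations of -0.0269 (WT and F1), -0.083 (WT and F2) and -0.182 (F1 and F2), and blocked results are given here only.

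Of the 7 members, 2 were called in F1, and the quasi-likelihood test without a block, the likelihood-ratio test with replicate block, dispersion from the 2 groups compared, GC and length offsets, and a replicate block with crossed F2 numbers (added after seeing the data) each called 1. The quasi-likelihood test with the replicate block called 0, with or without the offsets. Leaving out 1 library gave 0 to 2 in F1. In F2 a threshold of 0.05 called 2 in place of 1. With the replicate block the F1 adjusted p of Gabra5 was 0.0145, and 0.014 with the offsets, and that of Gabra3 was 0.0334 and 0.0453, in edgeR. Of the other subunits, 1 was called in F1 or F2, against 0 by the quasi-likelihood test, by either test with the replicate block, with the crossed block and with a minimum of 5 CPM, 2 by DESeq2, by dispersion from the 2 groups and with the offsets, 3 at a threshold of 0.05, and 0 to 2 without 1 library.

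Over all genes, 2144 were called in F1, 2084 in F2 and 129 between F2 and F1. The quasi-likelihood test gave 1029, 997 and 2, with the replicate block 848, 758 and 9, with offsets 1300, 1169 and 3, and with offsets and replicate block 830, 744 and 2. A threshold of 0.05 gave 3623, 3606 and 230. The crossed block gave 1340 in F1 and 27 between F2 and F1. Without 1 library the counts ran from 988 to 2043 in F1 (lowest without WT replicate 1), from 703 to 2585 in F2 (lowest without F2 replicate 1) and from 52 to 223 between F2 and F1 (lowest without F2 replicate 1, highest without F1 replicate 2). The cause of these differences was not tested.

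Changes of sign were limited to differences that were not called. The log2 fold change of Gabrb1 in F2 was 0.00178 with DESeq2, 0.000243 with dispersion from the 2 groups, 0.0018 with RLE size factors, 0.00765 with upper-quartile factors and 0.0206 with no filter, and -0.0791 to 0.0883 without 1 library. That of Gabrb2 in F1 was 0.00243 with no filter, 0.0693 with offsets, 0.073 with offsets and replicate block, and -0.184 to 0.172 without 1 library. Without 1 library Gabrd ran from -0.0488 to 0.475 in F1 and, between F2 and F1, from -0.177 to 0.347, Gabra2 from -0.058 to 0.131 and Gabra4 from -0.000499 to 0.159.

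Shares as CPM, not divided by exon length, were 25.0% for Gabra2, 4.44% for Gabra3, 35.7% for Gabra4 and 34.9% for Gabra5, and 6.59% for Gabrb1 and 93.4% for Gabrb2, against 31.3%, 3.39%, 25.9%, 39.4%, 18.5% and 81.5% as RPKM, since exon lengths differ.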
